A study of Mus musculus with 4 samples.

Results

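The 5 genes described here carry glucose from the blood into heart muscle and through glycogen and glycolysis: Slc2a4, Hk2, Pygm, Tpi1 and Pkm. They were chosen by gene name, and each had 1 region in the deposited table, so they make up 5 of its 558 distinct regions and 5 of its 456 named genes. The table counts RNA that was captured from whole heart with an antibody against N4-acetylcytidine (ac4C), an RNA base modification that the acetyltransferase NAT10 makes. All 4 libraries came from C57BL/6 mice with the treatment label HFD+STZ+Exercise, 2 labelled control and 2 labelled NAT10 knockout, in a series on diabetic cardiomyopathy. Controls and knockouts thus shared diet, agent and exercise, and neither exercise nor diabetes was compared. The sources used here do not give the knockout allele, the cells in which it acts, age or sex, nor whether each library came from its own animal. The level of Nat10 was not analysed here, and so no targeted gene checks the labels.

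Heart muscle takes up glucose mainly through the transporter GLUT4, which insulin and contraction bring to the cell surface. Hexokinase traps the sugar inside the cell as glucose 6-phosphate, which is stored as glycogen or broken down to pyruvate. Glycogen phosphorylase frees glucose units from that store when the muscle works. Insulin resistance and a shift of the diabetic heart from glucose towards fatty acids are the known background to these genes in diabetic cardiomyopathy.

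Each gene has a known place in this route. Slc2a4 encodes GLUT4, and Hk2 encodes the hexokinase typical of insulin-responsive muscle. Pygm encodes the muscle form of glycogen phosphorylase. Tpi1 encodes triose phosphate isomerase, which interconverts the 3-carbon sugars of glycolysis, and Pkm encodes the muscle type pyruvate kinases, which catalyse the last step. On the GRCm38 build (GENCODE M21), Slc2a4 lies on the minus strand of chromosome 11 from 69942539 to 69948188 and Pygm on the plus strand of chromosome 19 from 6384399 to 6398459. Hk2 (82725025 to 82774454) and Tpi1 (124810586 to 124814296) both lie on the minus strand of chromosome 6, and Pkm lies on the plus strand of chromosome 9 from 59656368 to 59679375. The deposited table places Pygm at 6434429 to 6448489, which are not GRCm38 positions, although the submitters' processing notes name mm10, the same build. The table's positions are therefore printed here for Pygm alone, with their build unresolved.

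The coding sequences are shown for the feature that has been linked to ac4C in messenger RNA, cytidines that recur with a spacing of 3 bases. The motif CNNCNNCNNCNN (4 such cytidines, N for any base, searched on the sense strand with overlapping matches counted) was present in 94.3% of 21894 protein-coding genes of GENCODE M21 and in 95.9% of the 319 of them that the table covers. Its presence therefore marks no gene out. The longest run of each of the 5 genes is printed 5′ to 3′ in capitals with up to 9 bases on each side in lower case. Where runs of a gene tied in length, the first one found was printed, with codon position 1 searched before 2 and 3.
Slc2a4: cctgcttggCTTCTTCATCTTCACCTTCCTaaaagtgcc
Hk2: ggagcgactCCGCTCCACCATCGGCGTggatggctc
Pygm: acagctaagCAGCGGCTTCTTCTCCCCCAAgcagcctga
Tpi1: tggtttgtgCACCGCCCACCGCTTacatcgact
Pkm: attcagaccCAGCAGCTCCATgcagccatg
The runs of Slc2a4 and Pygm held 7 cytidines each, that of Hk2 6, that of Tpi1 5 and that of Pkm 4. A run of at least 7 was found in 42.6% of the covered genes, and a run of at least 4 in 95.9%. The cytidines of the printed run fell on codon position 3 in Slc2a4, Hk2 and Pygm, on position 2 in Tpi1 and on position 1 in Pkm. Pkm had 6 motif matches and no run above 4 cytidines, so its printed run is 1 of several of equal length. Its codon position thus follows from the order of the search. Motif density was 13.1 matches per 1000 coding bases in Pygm and 12.4 in Slc2a4, against a median of 8.52 over the covered genes. Tpi1 had 6.69, Hk2 5.09 and Pkm 3.77. Where each region starts and ends was not used here, so these letters were not placed inside or outside the counted regions.

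The control libraries held 674687 and 686323 counts over all regions, and the knockout libraries 920818 and 693922. Levels below are CPM, counts per 1000000 of those sums after scaling by TMM, a method that sets the bulk of regions equal between libraries. A change shared by most regions would thus not be seen, and each scaled fold change is relative to the bulk of regions. Regions differ in length, so levels are compared between libraries and not between genes. Of 16 heart muscle markers 10 had a region, and their 56 regions summed to 98161 and 98072 CPM in control and 95882 and 99817 CPM in knockout. Single markers differed: by edgeR 4 of the 56 regions were higher in knockout (over Myl2, Myl3, Atp2a2 and Pln) and 1 was lower (over Nppa, the atrial natriuretic peptide gene). Of all regions, 2.33% were called higher in knockout and 1.61% lower. With captured RNA alone, RNA abundance and ac4C cannot be told apart, and neither can fewer cells of a type and less RNA per cell.

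**Figure D1:**
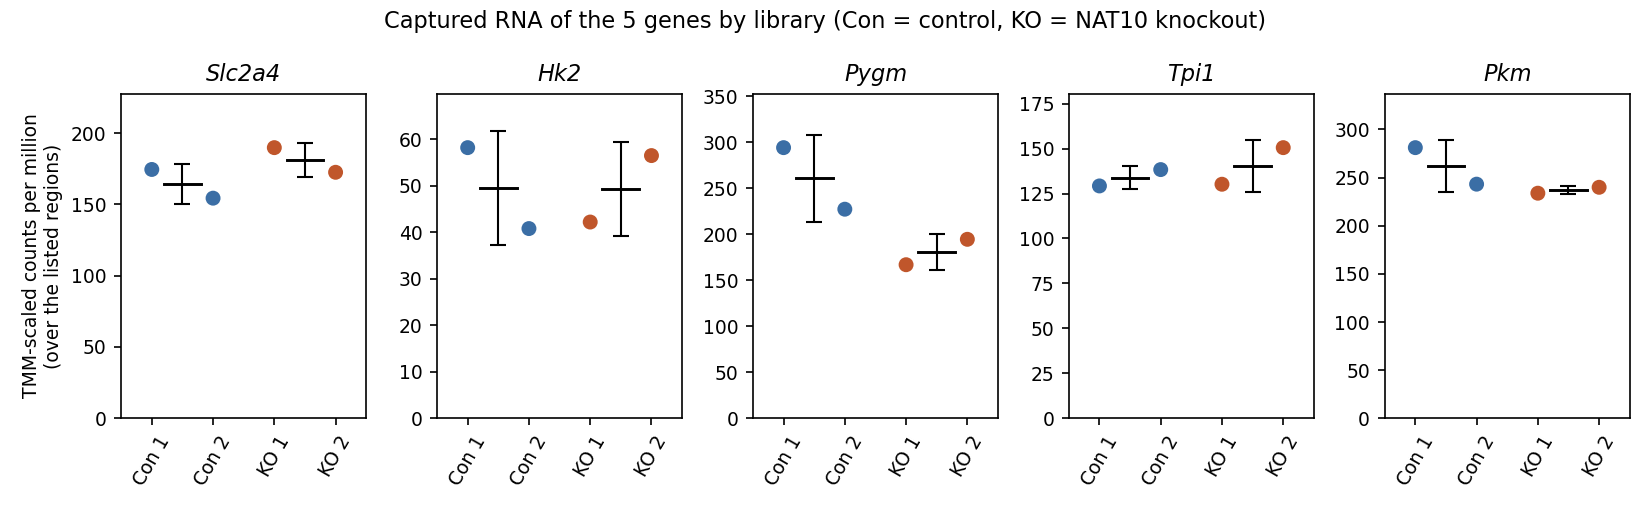
Level of each of the 5 gene regions in each library, in TMM-scaled CPM over the listed regions (points), with the group mean and SD of 2 libraries (bars); the vertical axes differ between genes and start at 0. Both knockout libraries lie below both controls for Pygm and, by a narrow gap, for Pkm, and the groups overlap for the other 3 genes.

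Slc2a4, the uptake step, stood at 174 and 154 CPM in the control libraries and at 190 and 172 CPM in the knockout libraries. The groups overlapped, since knockout replicate 2 fell between the controls. The means were 164 ± 14.2 in control and 181 ± 12.2 CPM in knockout (SD, n = 2). On the log2 scale, knockout minus control was 0.15 ± 0.19 (SE), with a 95% interval from -0.24 to 0.54 (edgeR quasi-likelihood test with Benjamini-Hochberg adjustment, adjusted p = 0.698). Among all regions this value lay at percentile 63.4.

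Hk2, the trapping step, was the least deeply counted of the 5, with 36 and 28 counts in control and 46 and 36 in knockout. Scaled, these were 58.1 and 40.8 CPM in control and 42.2 and 56.4 CPM in knockout, so both knockout libraries lay between the controls. The log2 fold change was -0.02 ± 0.42 (edgeR adjusted p = 0.995). Its 95% interval ran from -0.88 to 0.84, the widest of the 5. The table lists the Hk2 region with Gm17034, an antisense gene of 3007 bases that GENCODE M21 places wholly inside Hk2 on the opposite strand, where it covers 0 of the 18 exons of the principal Hk2 transcript. The sources used here do not say how strand was handled, so reads of Hk2 and of Gm17034 cannot be told apart.

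Pygm, the step that breaks down glycogen, had the lowest fitted value of the 5. The control libraries had 182 and 156 raw counts of it and the knockout libraries 182 and 124. Control replicate 1 and knockout replicate 1 thus had equal raw counts in libraries of unequal depth, and their TMM factors differed too (0.918 and 1.18). Scaled, the levels were 294 and 227 CPM in control and 167 and 194 CPM in knockout. Both knockout libraries lay below both controls, as in 22.2% of all regions. The means were 261 ± 47.3 in control and 181 ± 19.5 CPM in knockout (SD, n = 2), and the controls lay further from each other than control replicate 2 lay from knockout replicate 2. The log2 fold change was -0.54 ± 0.18 (SE), or 0.689-fold, with a 95% interval from -0.90 to -0.17. Its unadjusted p was 0.0054 and its adjusted p 0.090 (edgeR quasi-likelihood test with Benjamini-Hochberg adjustment over all regions), so it did not pass. By p it ranked 33 of 558, and by fold change it lay at percentile 6.99.

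The Pygm value depended on which control library was kept. Without control replicate 2 it was -0.72 and passed (edgeR adjusted p = 0.0209), and without control replicate 1 it was -0.34 and did not (adjusted p = 0.474). Without knockout replicate 1 it was -0.42, and without knockout replicate 2 it was -0.64 (edgeR adjusted p = 0.482 and 0.164).

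**Figure D2:**
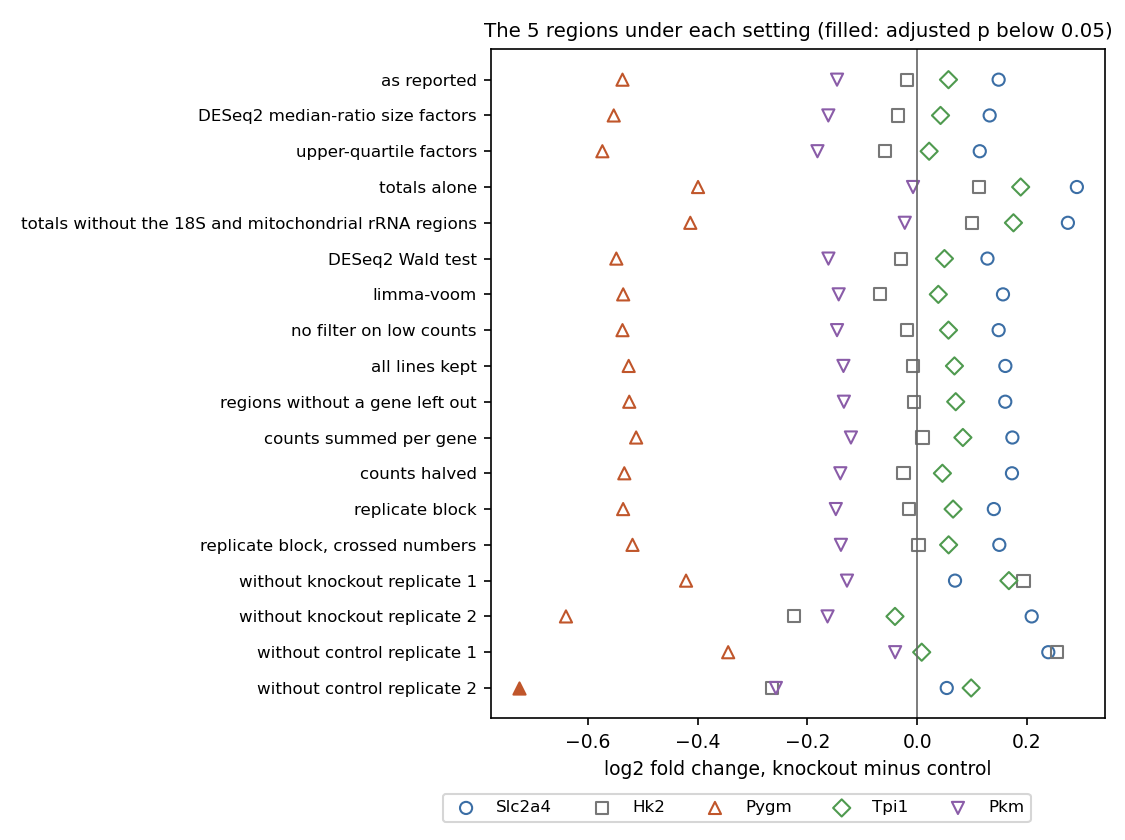
Log2 fold change of the 5 regions as reported and under each of 17 alternatives (open symbols, adjusted p at or above 0.05; filled, below 0.05). Pygm lies lowest of the 5 in every row and is filled only without control replicate 2, and Hk2 and Tpi1 change side with the setting.

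Tpi1, in the middle of glycolysis, stood at 129 and 138 CPM in control and 130 and 151 CPM in knockout. Knockout replicate 1 lay between the controls and knockout replicate 2 above them. The log2 fold change was 0.06 ± 0.21, with a 95% interval from -0.37 to 0.49 (edgeR adjusted p = 0.910). The region is listed with Spsb2, a protein-coding gene on the opposite strand that overlaps the last exon of Tpi1 by 34 bases on GRCm38. The coding sequence of Tpi1 had 1 look-alike, a pseudogene that matched at least 50% of it at 94.2% identity, and the sources used here do not say how reads that match both were treated.

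Pkm, the last step, stood at 281 and 243 CPM in control and 234 and 240 CPM in knockout. Both knockout libraries lay below both controls, but the gap between control replicate 2 and knockout replicate 2 was small beside that between the controls. The means were 262 ± 26.8 in control and 237 ± 4.34 CPM in knockout (SD, n = 2). The log2 fold change was -0.15 ± 0.16, with a 95% interval from -0.48 to 0.19 (edgeR adjusted p = 0.656). Pkm was listed with Gm49759, a 3887-base gene of unclear coding status on the same strand. On GRCm38 that span contains both alternative 167-base exons by which the pyruvate kinase isoforms M1 and M2 differ, so the listing does not tell the isoforms apart. Of 5 other genes that matched at least 50% of the Pkm coding sequence, all 5 were pseudogenes, with identity up to 98.4%, so the Pkm count is uncertain in this respect too.

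By edgeR 0 of the 5 regions passed, against 3.94% of all regions in either direction. At an unadjusted p below 0.05 there was 1, Pygm, against 19.0% of all regions. The DESeq2 Wald test and limma-voom gave the same counts, 0 and 1, but DESeq2 gave no adjusted p for Hk2. Of all 558 regions, 7 passed by the DESeq2 Wald test and 27 by limma-voom. For Pygm the unadjusted and adjusted p were 0.0465 and 0.499 by the DESeq2 Wald test, and 0.0037 and 0.070 by limma-voom. The knockout and control groups did not overlap in 2 of the 5, Pygm and Pkm, against 47.5% of all regions. The median log2 fold change of the 5 was -0.02 and that of all regions 0.01. An exact permutation test of 2 libraries against 2 cannot give a two-sided p below 0.333, which Pygm and Pkm reached; Slc2a4 and Tpi1 gave 0.667 and Hk2 gave 1. Equal replicate numbers say nothing of shared animals, and p-values reflect the spread among these 4 libraries alone, which may be technical.

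The count of Pygm can also be set against those of the other 4 genes inside each library, which needs no scaling; this comparison was chosen after the values were seen. Pygm had 0.457 and 0.394 counts for each count of the other 4 together in the control libraries, and 0.28 and 0.314 in the knockout libraries. Both knockout libraries lay below both controls, as did 22.7% of the 554 regions set against the same sum. The mean ratio was 0.426 ± 0.0448 in control and 0.297 ± 0.024 in knockout (SD, n = 2; two-sided exact permutation p = 0.333, the smallest that 2 against 2 allows). Since Pygm was chosen for its low value, the ratio is a description. Without 1 library the log2 ratio of the group means ran from -0.62 to -0.41, around -0.52 with all 4.

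**Figure D3:**
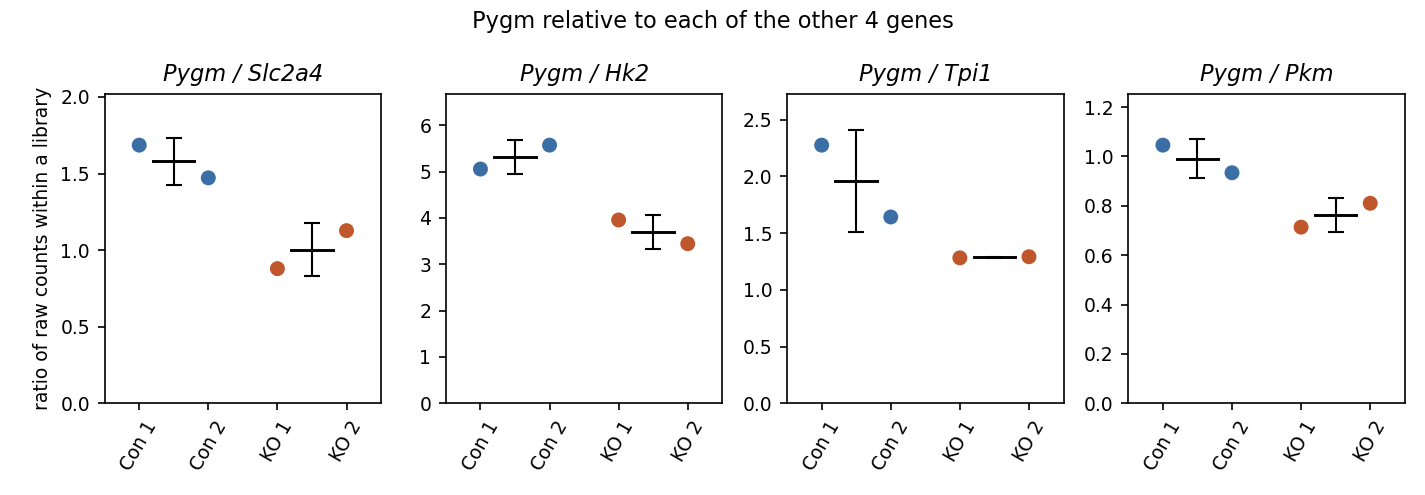
Raw Pygm counts divided by the raw counts of Slc2a4, Hk2, Tpi1 or Pkm in the same library (points), with group mean and SD of 2 libraries (bars). In each of the 4 panels both knockout libraries lie below both controls; the panels share the Pygm count and are not independent.

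Against each gene alone, the order of the groups was the same. Pygm counts were 1.69 and 1.47 times those of Slc2a4 in control and 0.879 and 1.13 times in knockout. They were 1.05 and 0.934 times those of Pkm in control and 0.714 and 0.810 times in knockout. Against Tpi1 the ratio was 2.28 and 1.64 in control and 1.28 and 1.29 in knockout, and against Hk2 it was 5.06 and 5.57 in control and 3.96 and 3.44 in knockout. Among the other 6 pairs the groups did not overlap in 1, the ratio of Slc2a4 to Pkm. That makes 5 of the 10 pairs, against 47.2% of all pairs of regions with no count of 0, a like share. That ratio was 0.621 and 0.635 in control and 0.812 and 0.719 in knockout.

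Other genes of glucose handling gave few regions. Of 96 genes listed for glucose uptake, insulin signalling, glycogen, glycolysis, lactate and pyruvate, transcription by glucose, and the hexosamine and pentose routes, 13 had a region, the 5 genes above among them. The other 8 had 9 regions, of which 1 was lower in knockout by edgeR and 0 were higher, against 1.61% and 2.33% of all regions. Of the 9, 8 had fitted values above 0, against 51.4% of all regions. These 8 include Dlat at 0.01 ± 0.46 (SE), and only the region shared by Map3k15 and Pdha1 had an interval above 0. The median log2 fold change of the 9 was 0.27, against 0.01 over all regions. It was 0.071 without knockout replicate 1 and 0.42 without knockout replicate 2. The lists were chosen with earlier results of these data known, so these comparisons with all regions are descriptions only. A shared rise was not tested. The region that was lower overlapped Pdk4, the kinase that inhibits pyruvate dehydrogenase, at 226 and 248 CPM in control and 40.3 and 69 CPM in knockout (log2 fold change -2.18 ± 0.24, edgeR adjusted p = 8.93e-08). It alone of the pathway regions passed with all 4 libraries, and Pygm joined it without control replicate 2.

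**Figure D4:**
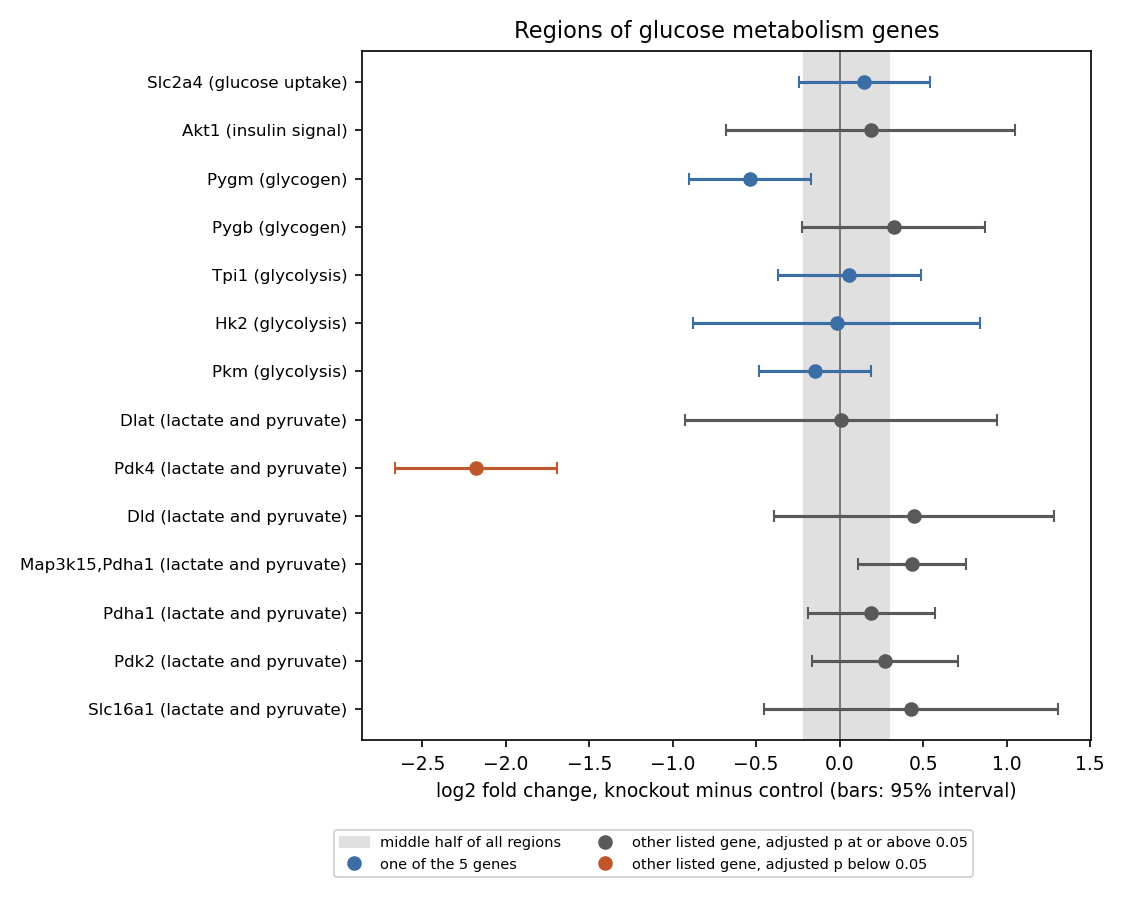
Log2 fold change of knockout against control for each region of a listed glucose metabolism gene, with its 95% interval; the grey band spans the middle 50% of all regions, and names joined by a comma share a region. Pdk4 lies far to the left at -2.18 and alone passed. Pygm at -0.54 has an interval below 0, and the region shared by Map3k15 and Pdha1 at 0.43 has an interval above 0. Neither of these passed (edgeR adjusted p = 0.090 and 0.121). The other 4 of the 5 genes lie inside the band.

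Pygb, which encodes the brain form of glycogen phosphorylase and was the other gene of the glycogen list with a region, stood at 67.8 and 78.6 CPM in control and 99 and 83.1 CPM in knockout. Both knockout libraries lay above both controls, as in 25.3% of all regions. Its log2 fold change was 0.32 ± 0.27 (edgeR adjusted p = 0.561), and the difference between the phosphorylase genes was not tested. Akt1, a kinase of the insulin signal, stood at 0.19 ± 0.42 on the log2 scale, and Slc16a1, a lactate and pyruvate carrier, at 0.43 ± 0.43. The groups overlapped for both. Of the pyruvate dehydrogenase genes, a Pdha1 region shared with Map3k15 stood at 0.43 ± 0.16 (edgeR adjusted p = 0.121) and the other Pdha1 region at 0.19 ± 0.19. Dld stood at 0.45 ± 0.41, Dlat at 0.01 ± 0.46 and the kinase gene Pdk2 at 0.27 ± 0.21, and none of these passed.

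The regions whose levels followed each gene most closely over the 4 libraries were found by Euclidean distance of log2 CPM from the region's own mean. For Pygm these were Arih1 (0.112), Mlf2 (0.156) and the predicted gene Gm13456 (0.169), with log2 fold changes of -0.64, -0.72 and -0.68, of which 0 passed. For Slc2a4 they were Gm6581, Ldb3 and 1 region of Atp2a2, at distances from 0.0256 to 0.0764. Tpi1 was followed by a region shared by Gm13938 and Ttn, by Gm15770 and by Ndufa4 (0.0465 to 0.069). Pkm was followed by Ndrg2, Uqcrfs1 and the region shared by Ckm and A930016O22Rik (0.0561 to 0.083), and Hk2 by Ccng1, Gatd3a and Snord94 (0.122 to 0.222). With 4 libraries, a close distance is a description of these values only.

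Fitted values of markers of other cells lay on both sides of 0 beside that of Pygm. Of 13 fast skeletal muscle markers 1 had a region, Ckm, which heart muscle also expresses and which stood at 780 and 677 CPM in control and 676 and 640 CPM in knockout. Of 6 endothelial markers 1 had regions, Cd36, whose 2 regions summed to 543 and 467 CPM in control and 398 and 425 CPM in knockout. Like Pygm, Ckm and the Cd36 sum were highest in control replicate 1 and lower in both knockout libraries than in both controls. The knockout lay below in this way in 22.2% of all regions. For Ckm the gap was narrow. The groups overlapped for 1 of the 2 Cd36 regions, at a log2 CPM of 8.05 in knockout replicate 2 and 8.04 in control replicate 2. Of 7 smooth muscle and pericyte markers 2 had a region, Rgs5 and Abcc9, with sums of 84 and 154 CPM in control and 151 and 187 CPM in knockout. The 1 macrophage marker of 6, Cd74, stood at 48.5 and 84.4 CPM in control and 103 and 103 CPM in knockout. The 1 red blood cell marker of 5, Hba-a2, stood at 32.3 and 45.1 CPM in control and 54.1 and 18.8 CPM in knockout. Fibroblast and adipocyte markers had 0 regions. None of these marker regions passed, and their part in the Pygm value was not tested. Whether heart muscle itself contributed to the counts of Cd36, Rgs5 and Abcc9 was not tested either, so their sums do not measure a cell type.

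The deposited table also holds the authors' own comparison. By the authors' deposited table, Pygm was lower in knockout and the other 4 regions were higher, with log2 values of 1.50 for Slc2a4, 2.30 for Hk2, 1.59 for Tpi1, 1.25 for Pkm and -0.38 for Pygm. The authors' deposited table gave 76.9% of all regions as higher in knockout, with a median log2 value of 0.99 over all regions. Its p-values were below 0.05 for Tpi1 (0.0284) and Pkm (0.00762), against 27.2% of all regions, and the q-value was 1 for each of the 5. The ratio of mean raw counts gave 0.57 for Slc2a4, 0.36 for Hk2, 0.44 for Tpi1, 0.26 for Pkm and -0.14 for Pygm on the log2 scale. For Hk2, with 36 and 28 counts in control and 46 and 36 in knockout, the authors' deposited value was thus 1.95 above the log2 ratio of the counts beside it. Over all regions the median of that gap was 0.49.

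**Figure D5:**
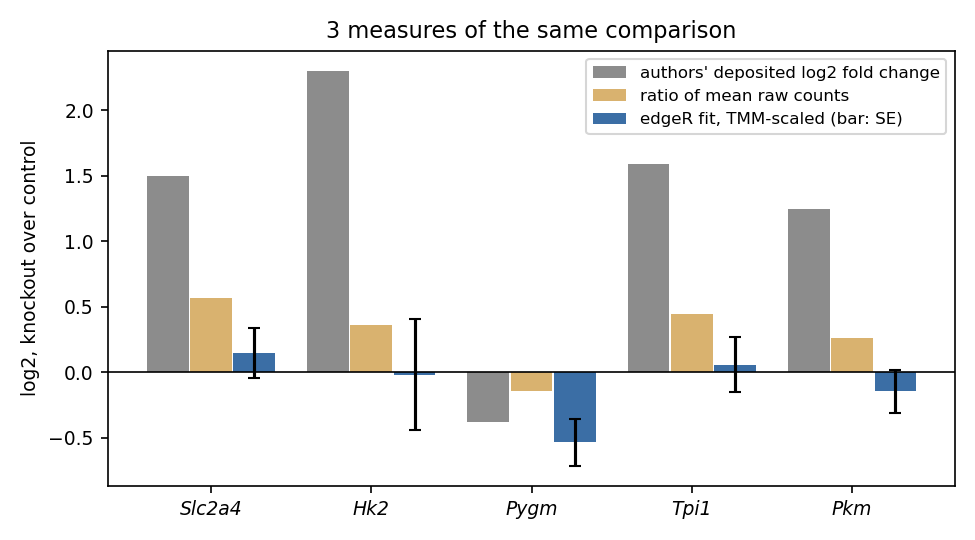
Log2 of knockout over control for the 5 genes as given in the authors' deposited table, as the ratio of mean raw counts, and as the edgeR fit on TMM-scaled counts with its SE. Pygm lies below 0 in all 3 measures, and the authors' values of the other 4 lie between 1.25 and 2.30 while the scaled values lie between -0.15 and 0.15.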

How the data were processed

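Per the labels' protocols, RNA of frozen hearts was extracted with Trizol and depleted of ribosomal RNA before library construction, and the series text states the antibody capture. Yet the 18S rRNA region held 133394 and 132526 counts in control and 165622 and 135833 in knockout. A region over mitochondrial rRNA and other mitochondrial genes held 157448 and 158340 in control and 209524 and 168031 in knockout. Both are part of the library sums given above. FastQC, Salmon and the build mm10 appear in the submitters' processing notes with no version or role. The deposited values are whole-number counts per region with no normalisation named, per the file headers. The deposited log2 fold change, p-value and q-value are the authors' own, per the file headers, from a tool that the sources used here do not name; the sign was turned so that positive means higher in knockout.

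Of 652 lines, 94 repeats of a region were removed. Low counts were mostly even (77.9% to 83.3% of counts below 200 per library, and 15 of the 20 counts of the 5 genes), so counts are not independent molecules. In neither group did the replicates hold the same counts throughout. A chi-square test over all regions of a replicate pair gave 4.51 (control) and 16.3 (knockout) per degree of freedom. These have no fixed reference value for counts that are not independent. Counts of all 558 regions were tested with edgeR 4.0.16 (R 4.3.3; filterByExpr, TMM factors from 0.918 to 1.18, robust quasi-likelihood test) with Benjamini-Hochberg adjusted p below 0.05. DESeq2 1.42.0 and limma 3.58.1 were alternatives. No gene of the 5 had a second region, so unequal change within a gene was not tested. Motifs were searched in the longest principal coding sequence per gene, and look-alikes found with BLAST 2.17.0 (at least 90% identity).

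All 5 genes and every gene of the glucose metabolism lists with a region were named. Members and lists were chosen with earlier results of these data known.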

Additional observations from a re-analysis of the deposited data

How the results depend on the processing

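Slc2a4 kept a value above 0 (0.05 to 0.29) and Pkm one below 0 (-0.26 to -0.01) in all 17 alternatives, and Pygm stayed below 0 (-0.72 to -0.34) with an adjusted p from 0.0209 to 0.854. With totals alone Pygm stood at -0.40 (edgeR adjusted p = 0.854), where the median of all regions was 0.15 in place of 0.01. Hk2 turned to 0.11 with totals alone, 0.10 with totals without the 18S and mitochondrial rRNA regions, 0.0096 with counts summed per gene and 0.0026 with crossed replicate numbers, and ran from -0.26 to 0.26 without 1 library. Tpi1 turned to -0.040 without knockout replicate 2, and ran up to 0.17 without 1 library. DESeq2 gave no adjusted p for Hk2. Hk2 had 28 to 46 counts per library. With totals alone it shifted about as far as the median of all regions did, and the cause of the other shifts was not tested.

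The count of the 5 regions past the threshold was 0, and 0 to 1 without 1 library. The count of all regions, 22, was 8 with totals alone, 14 with totals without those rRNA regions, 7 with the DESeq2 Wald test, 40 with all lines kept, and 13 to 37 without 1 library. Higher regions were 59.1% of the calls, 78.6% with totals without the rRNA regions, 76.5% without knockout replicate 1, 46.2% without control replicate 2 and 35.1% without knockout replicate 2, and with upper-quartile factors 13 were higher and 13 lower. The median of the 5 was 0.11 with totals alone, 0.10 with totals without the rRNA regions, and -0.26 to 0.069 without 1 library. The median of the other pathway regions was 0.41 and 0.40 in the same settings and 0.071 to 0.42 without 1 library. Pathway regions past the threshold were 1 as reported and 1 to 2 without 1 library.

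The deviations of same-numbered libraries from their group means had a correlation of -0.159 over all regions. With 2 libraries a group this compares a single contrast per group, so it cannot decide whether the numbers pair libraries. With the replicate block 1 region passed, 0 of them in the pathway lists, where Pdk4 stood at -2.16 and lost its call (edgeR adjusted p = 0.090), and Pygm stood at -0.54 (edgeR adjusted p = 0.346). With the pairing crossed, chosen after seeing the data, 42 passed, and 0 of the 5 genes.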
